A study of Vitis rotundifolia with 18 samples.

Results

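The 7 genes that finish and move anthocyanins, the pigments of dark grape skins, were followed through ripening of muscadine berries. They were taken by identifier: UFGT (VIT_16s0039g02230), GST4 (VIT_04s0079g00690), AOMT1 (VIT_01s0010g03510), AOMT2 (VIT_01s0010g03490), 3AT (VIT_03s0017g00870), and the anthoMATE transporters AM1 (VIT_16s0050g00930) and AM3 (VIT_16s0050g00900). All 7 of these identifiers are among the 27228 in the deposited tables. The tables pair no identifier with a gene name, so the names are those used for these identifiers in the European grapevine, Vitis vinifera.

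The plant is Vitis rotundifolia, the muscadine grape, and 18 berry libraries were sequenced, 3 in each of 6 groups. Noble and Carlos, the 2 cultivars, were each taken at bunch closure (E-L 32 on the grapevine growth scale), at veraison, when ripening sets in (E-L 35), and at maturity (E-L 38). Noble is a dark-skinned cultivar and Carlos a bronze-skinned one, and the study set out to compare how the 2 cultivars ripen. All berries came from 1 research station, the labels list no treatment, and they do not say how many berries or vines made up a library, nor that the tissue was skin. In berry RNA, fewer skin cells and less RNA per skin cell cannot be told apart.

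Anthocyanins are made in the skin from veraison onward. UFGT adds a glucose to the anthocyanidin and so gives the first stable pigment; GST4 is needed for carrying it into the vacuole; AOMT enzymes methylate the B ring, which turns delphinidin- and cyanidin-type pigments into malvidin-, petunidin- and peonidin-type ones. In V. vinifera 3AT adds acyl groups to the glucose, and AM1 and AM3 move acylated pigment across the vacuole membrane. In white V. vinifera cultivars UFGT is not expressed, whereas muscadine pigments are mostly diglucosides without acyl groups.

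Libraries held 18919160 to 30843026 expected counts, and 6 of the 7 genes passed the filter on low counts; 3AT did not. The 3 libraries called apart here are Noble E-L 32 replicate 1, Noble E-L 35 replicate 2 and Carlos E-L 35 replicate 3, a set taken from an earlier account of these data. Results are given with all 18 libraries and, where it matters, without Carlos E-L 35 replicate 3 or without all 3 of them. Other libraries were also distant from their replicates. The chi-square per degree of freedom between counts was 90.5 and 82 for Carlos E-L 38 replicate 3 against its replicates, which gave 12 between them, and 37.2 and 42.6 for Noble E-L 38 replicate 3, against 8.73. For the set of 3 it was 22 and 25.2 in Noble E-L 32, 148 and 146 in Noble E-L 35, and 653 and 614 in Carlos E-L 35, against 2.96, 15.8 and 2.95 between the other replicates. Both E-L 38 libraries stay in the reduced set, and each was left out in turn like every other library. The E-L 38 cultivar names also went against the order of some pathway identifiers at E-L 35 or at both earlier stages, as described below. Hence "Noble" and "Carlos" at E-L 38 mean the libraries that carry those labels. Levels are in TPM (relative transcript abundance), which is scaled by gene length and allows genes to be compared with each other. Fold changes are log2 values from the quasi-likelihood test of edgeR on counts, fitted across 17657 genes; called means an adjusted p below 0.05.

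**Figure D1:**
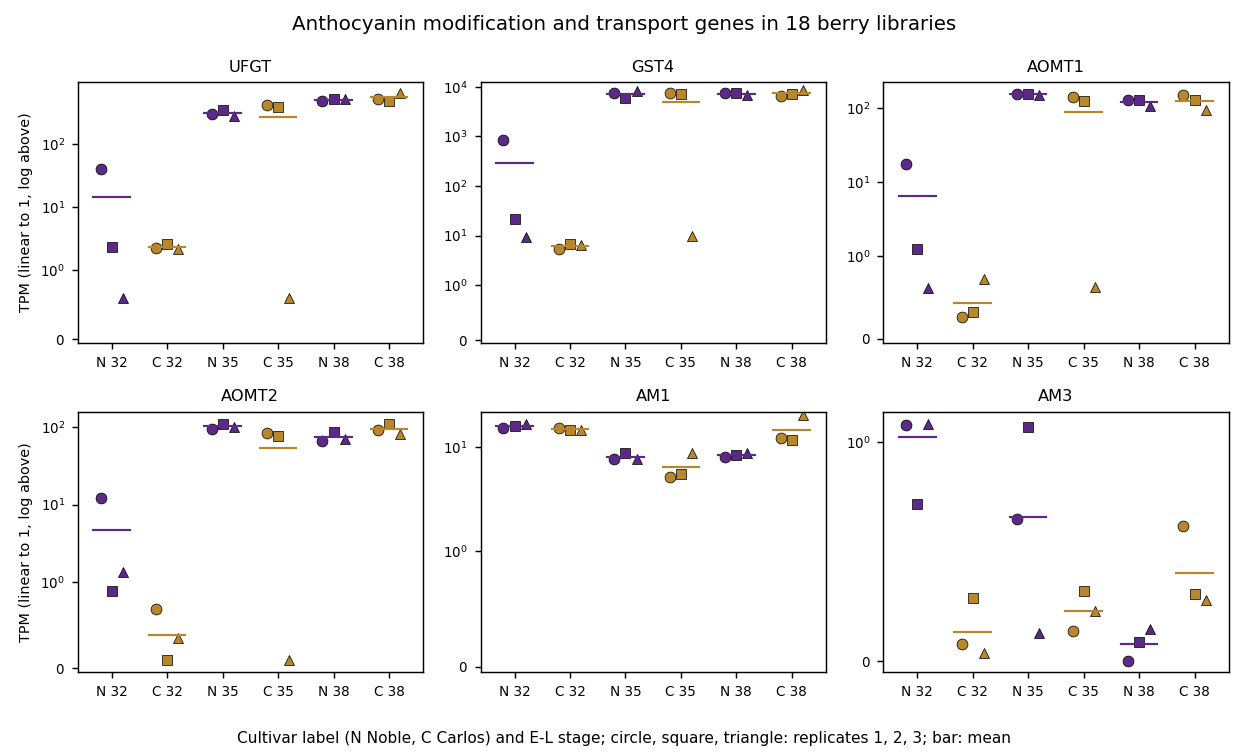
TPM of 6 genes in all 18 libraries (vertical axis linear to 1 and logarithmic above), by cultivar label and E-L stage, with 1 marker per library and a bar at each group's mean. UFGT, GST4, AOMT1 and AOMT2 are near the bottom at E-L 32 and high at E-L 35 and E-L 38 under both labels, with Carlos E-L 35 replicate 3 at the bottom and Noble E-L 32 replicate 1 in between; 3AT is not drawn because it was 0 in every library.

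UFGT rose from near 0 to 286 to 427 TPM at veraison, outside 1 Carlos library, in both cultivars. In Noble its level was 40.3, 2.29 and 0.6 TPM in replicates 1, 2 and 3 at E-L 32 and 303, 356 and 286 TPM at E-L 35. In Carlos it was 2.22, 2.55 and 2.17 TPM at E-L 32 and 427, 395 and 0.59 TPM at E-L 35. Every Noble library at E-L 35 was above every Noble library at E-L 32, while in Carlos the third E-L 35 library lay below all 3 of E-L 32. Under the Noble label at E-L 38 the level was 486, 523 and 525 TPM. Under the Carlos label it was 526, 496 and 665 TPM, so that all 6 E-L 38 libraries were above all 6 of E-L 35 and the 2 labels overlapped. The rise at veraison was 4.76 ± 1.48 (log2, SE) in Noble, with an edgeR adjusted p of 0.015, and 7.24 ± 1.68 in Carlos, with an adjusted p of 0.0021. Without Noble E-L 32 replicate 1 the Noble rise was 8.18, and without the 3 libraries called apart it was 8.11 ± 0.36 in Noble and 7.83 ± 0.29 in Carlos. The Noble call was lost without Noble E-L 32 replicate 2, where edgeR gave an adjusted p of 0.056 in a range of 1.2e-09 to 0.058 over the alternatives.

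GST4 was the most abundant of the 7 and also rose at veraison in both cultivars. Its level in Noble was 842, 22 and 9.49 TPM at E-L 32, then 7612, 5837 and 8104 TPM at E-L 35. In Carlos it was 5.44, 6.76 and 6.54 TPM at E-L 32, then 7453, 7301 and 9.94 TPM at E-L 35. Apart from the third Carlos library, E-L 35 lay far above E-L 32 in both cultivars. At E-L 38 the libraries labelled Noble held 7693, 7494 and 6772 TPM and those labelled Carlos 6589, 7114 and 8558 TPM, which overlapped each other and the E-L 35 libraries. In the 11 libraries of E-L 35 and E-L 38 other than Carlos E-L 35 replicate 3, GST4 ranked between 5 and 12 among all identifiers by TPM. It took 0.294% to 0.482% of the counts, under the Carlos label as under the Noble label. Its rise at veraison was 4.89 ± 1.64 (log2) in Noble, edgeR adjusted p = 0.022, and 9.97 ± 2.07 in Carlos, adjusted p = 0.00093. Without Noble E-L 32 replicate 1 the Noble rise was 9.22, and without the 3 libraries called apart the rises were 9.35 ± 0.37 and 10.56 ± 0.32. Leaving out Noble E-L 32 replicate 2 or replicate 3 took the Noble call to edgeR adjusted p values of 0.068 and 0.059, in a range of 5e-10 to 0.068 over the alternatives.

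The methyltransferase genes AOMT1 and AOMT2 switched on together. AOMT1 in Noble stood at 17.7, 1.27 and 0.62 TPM at E-L 32 and at 156, 154 and 150 TPM at E-L 35. In Carlos it stood at 0.26, 0.33 and 0.73 TPM and then at 139, 123 and 0.63 TPM. The libraries labelled Noble at E-L 38 held 126, 127 and 107 TPM of it, and those labelled Carlos 149, 128 and 94.9 TPM. Again the 2 labels overlapped at maturity, and only the third Carlos library of E-L 35 remained at the E-L 32 level. AOMT2 in Noble went from 12, 0.9 and 1.33 TPM to 95.1, 111 and 99.8 TPM, and in Carlos from 0.69, 0.1 and 0.35 TPM to 83.2, 75.8 and 0.09 TPM. At E-L 38 it stood at 67, 87.8 and 69.3 TPM under the Noble label and at 91.8, 111 and 81.4 TPM under the Carlos label, which overlapped. AOMT1 rose by 4.86 ± 1.22 (log2) in Noble, edgeR adjusted p = 0.004, and by 8.01 ± 1.57 in Carlos, adjusted p = 0.00059. AOMT2 rose by 4.73 ± 1.17 in Noble, edgeR adjusted p = 0.0037, and by 7.39 ± 1.48 in Carlos, adjusted p = 0.00073. Without Noble E-L 32 replicate 1 the Noble rises were 7.72 for AOMT1 and 6.84 for AOMT2. Expected counts of both lay more than 0.005 from a whole number in 17 of 18 libraries. Reads were thus divided between similar genes, and the split between AOMT1 and AOMT2 is uncertain. Nor did the counts of the pair add to a whole number, as with 1942.4 and 1166.41 in Noble E-L 35 replicate 1. Reads were therefore also shared with other identifiers, and the combined AOMT level is uncertain too.

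3AT, the acyltransferase gene of V. vinifera, had 0 counts in all 18 libraries. A count of 0 allows up to 3 counts, which is 0.0973 to 0.159 CPM (counts scaled to a common library total) depending on the library, for counting error only. Whether muscadine reads of such a gene would be assigned to this identifier was not tested.

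The transporter AM1 moved the other way at veraison and stayed at a low level throughout. It held 15.1, 15.9 and 16.4 TPM in Noble and 15.3, 14.5 and 14.5 TPM in Carlos at E-L 32. At E-L 35 it held 7.58, 8.63 and 7.56 TPM in Noble and 5.11, 5.51 and 8.65 TPM in Carlos, below every E-L 32 library. At E-L 38 it held 7.9, 8.38 and 8.8 TPM under the Noble label, and 12.2, 11.5 and 20.2 TPM under the Carlos label, with no overlap between the labels. In the count test AM1 fell by 0.64 ± 0.22 (log2) in Noble at veraison, edgeR adjusted p = 0.024, and by 0.83 ± 0.22 in Carlos, adjusted p = 0.0055. The Noble call was lost without Noble E-L 32 replicate 1, Noble E-L 35 replicate 1 or Noble E-L 35 replicate 3, with edgeR adjusted p values of 0.051, 0.072 and 0.06 in a range of 0.00071 to 0.072. From E-L 35 to E-L 38 AM1 rose by 1.23 ± 0.22 under the Carlos label, edgeR adjusted p = 0.00065, and the Noble-labelled difference was 0.27 ± 0.22, adjusted p = 0.38. Expected counts of AM1 lay more than 0.005 from a whole number in 18 of 18 libraries, and more than 0.05 from one in 9. In every library they added to a whole number with those of VIT_16s0050g00910, numbered between AM3 and AM1. The pair was 232.5 and 7342.5 in Noble E-L 35 replicate 1, and 786.05 and 13982.95 in Carlos E-L 38 replicate 3. Some reads were thus divided between these identifiers. The AM1 values depend on that split, which was not tested.

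AM3, the other anthoMATE gene, stayed close to the limit of detection. Its highest level in any library was 1.24 TPM and 1 library, Noble E-L 38 replicate 1, had none. Noble libraries held 1.22, 0.72 and 1.24 TPM at E-L 32, 0.65, 1.19 and 0.13 TPM at E-L 35, and 0, 0.09 and 0.15 TPM under that label at E-L 38. Carlos libraries held 0.08, 0.29 and 0.04 TPM, then 0.14, 0.32 and 0.23 TPM, and 0.62, 0.31 and 0.28 TPM under that label at E-L 38. The labels did not overlap at E-L 32, where Noble was higher, nor at E-L 38, where the Noble label was lower. Under the Noble label AM3 fell by 2.76 ± 0.85 (log2) from E-L 35 to E-L 38, edgeR adjusted p = 0.022. That call was lost without Noble E-L 35 replicate 2, Noble E-L 38 replicate 1 or Noble E-L 38 replicate 2, with edgeR adjusted p values of 0.11, 0.069 and 0.062 in a range of 0.0062 to 0.11.

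**Figure D2:**
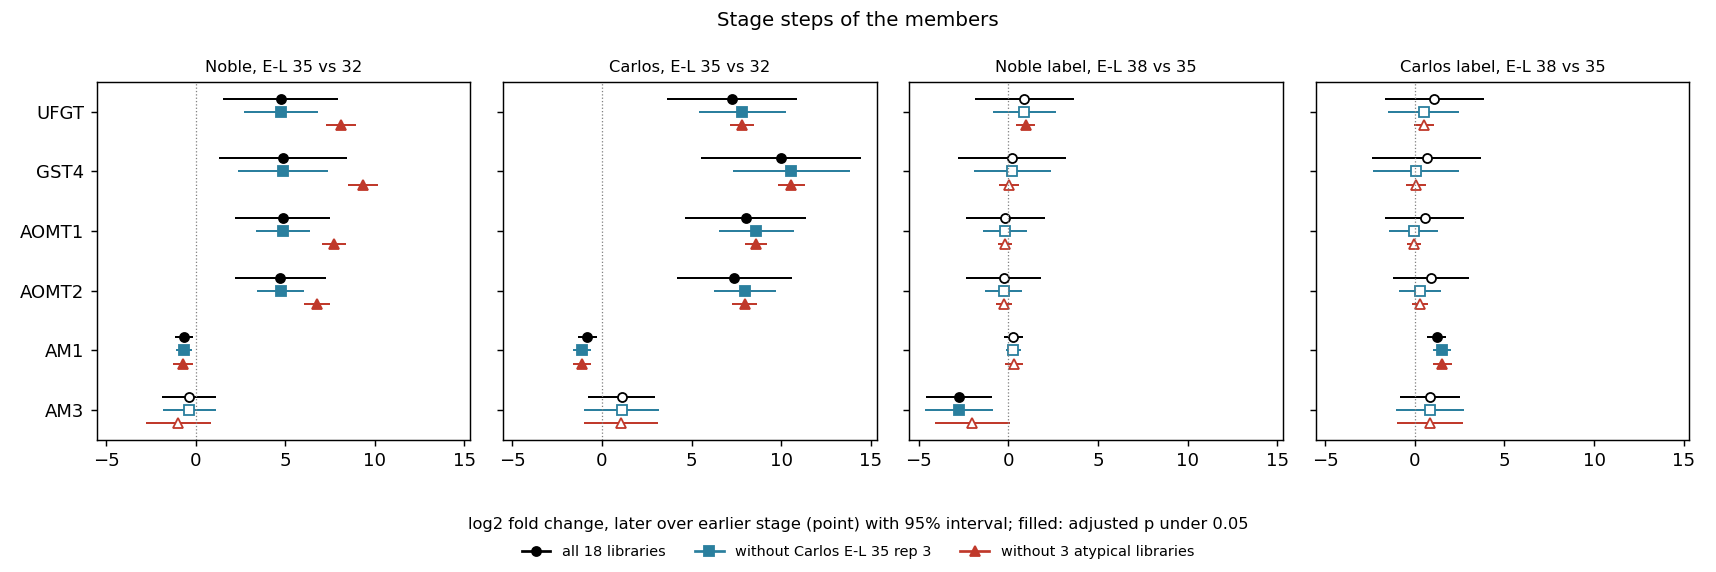
Log2 fold change of the later over the earlier stage for 6 genes (points, horizontal axis) with 95% intervals, in 4 stage steps and from 3 sets of libraries; filled points had an adjusted p under 0.05. UFGT, GST4, AOMT1 and AOMT2 lie far to the right of 0 at veraison in both cultivars, between 4.73 and 9.97 with all libraries, and AM1 lies to its left.

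Counted over the step to veraison, 4 of the 6 genes tested rose in Noble, where 23.7% of all genes tested rose, and 1 fell, where 26.4% fell. In Carlos UFGT, GST4, AOMT1 and AOMT2 rose, where 26.1% of all genes rose, and AM1 fell, where 27.4% fell. The median change of the 6 genes was 4.74 (log2) in Noble and 7.32 in Carlos, and over all genes tested it was -0.02 and 0.00. DESeq2 gave no adjusted p for UFGT and AOMT2 and called 3 of the other 4 genes in each cultivar. With limma-voom 3 of 6 were called in Noble and 1 of 6 in Carlos, with Carlos limma-voom adjusted p values of 0.24 for UFGT, 0.082 for GST4, 0.22 for AOMT1 and 0.27 for AOMT2. From veraison to maturity 1 gene of 6, AM3, fell under the Noble label, where 17.3% of all genes fell, and 1 of 6, AM1, rose under the Carlos label, where 18.7% rose. The Noble-labelled fall of AM3 was not called without the 3 libraries called apart (edgeR adjusted p = 0.11). In that set UFGT rose under the Noble label by 0.96 ± 0.23 (edgeR adjusted p = 0.0045, in a range of 0.0012 to 0.77), where 19.7% of all genes rose. The average over both labels, which does not depend on which E-L 38 library carries which name, called 1 gene higher, AM1, by 0.75 ± 0.16 with an edgeR adjusted p of 0.0021, where 16.9% of all genes were higher. UFGT was 0.99 ± 0.89 higher in that average, edgeR adjusted p = 0.40. Without the 3 libraries called apart it rose by 0.73 ± 0.16, with an edgeR adjusted p of 0.0031, the alternatives spanning 0.0031 to 0.5. GST4 and AOMT1 differed between E-L 35 and E-L 38 by 0.06 (95% interval -0.29 to 0.41) and -0.11 (-0.36 to 0.13) in that same reduced set. AOMT2 differed by 0.04 (-0.24 to 0.32).

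Whether the rise at veraison differed between the cultivars was tested as the difference of the 2 steps. None of the 6 genes passed with all libraries in edgeR, where 17.6% of all genes did, and 1 had an unadjusted p under 0.05. For GST4 the Noble step was smaller by 5.09 ± 2.12 (log2) with an edgeR adjusted p of 0.11. Without Carlos E-L 35 replicate 3 the Noble step was smaller for GST4 (-5.69 ± 1.56, edgeR adjusted p = 0.015), AOMT1 (-3.73 ± 1.27, adjusted p = 0.042) and AOMT2 (-3.22 ± 1.09, adjusted p = 0.04), 3 of 6, where 12.7% of all genes were lower. Over the alternatives those adjusted p values ranged from 0.015 to 1.0 for GST4, 0.042 to 0.99 for AOMT1 and 0.04 to 0.96 for AOMT2. Without Noble E-L 32 replicate 1 the GST4 difference was -0.80, and limma-voom gave 0.03. With 1 library left out, the AOMT1 and AOMT2 differences were -0.34 and -0.60 at their smallest. Without the 3 libraries called apart 1 of 6 was called, GST4 (-1.21, edgeR adjusted p = 0.027), where 14% of all genes were lower.

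At E-L 32, before the switch, Noble exceeded Carlos in 2 of the 6 genes tested, GST4 and AM3, where 13.8% of all genes tested were higher in Noble. GST4 was higher by 5.49 ± 1.72 (log2), edgeR adjusted p = 0.027, and all 3 Noble libraries were above all 3 Carlos ones. Most of that size came from 1 library: without Noble E-L 32 replicate 1 the difference was 1.19 with an edgeR adjusted p of 0.55, in a range of 0.00046 to 0.57. The call was also lost without each of the 3 Carlos E-L 32 libraries in turn, with edgeR adjusted p values of 0.093, 0.087 and 0.086. Without the 3 libraries called apart it was 1.18 ± 0.28, edgeR adjusted p = 0.0046. AM3 was higher in Noble by 2.79 ± 0.80, edgeR adjusted p = 0.017; this was lost without Carlos E-L 32 replicate 1 or replicate 3, at adjusted p values of 0.08 and 0.075 in a range of 0.0024 to 0.08. UFGT differed by 2.54 ± 1.41, edgeR adjusted p = 0.20, and by -0.88 ± 0.36, adjusted p = 0.068 in a range of 0.043 to 0.96, without the 3 libraries called apart. AOMT1 and AOMT2 differed by 3.82 ± 1.61 and 3.46 ± 1.57 and were not called. Without Carlos E-L 35 replicate 3 both, UFGT, GST4 and AM3 were called, 5 of 6, where 18.7% of all genes were higher in Noble. That library is not among those compared here, and the AOMT differences stayed at 3.80 and 3.43. With 1 library left out they went as low as 0.99 and 1.38. Their edgeR adjusted p values then ranged from 0.012 to 0.76 and from 0.0093 to 0.64. Without the 3 libraries called apart 2 of 6 were called, where 17.8% of all genes were higher.

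**Figure D3:**
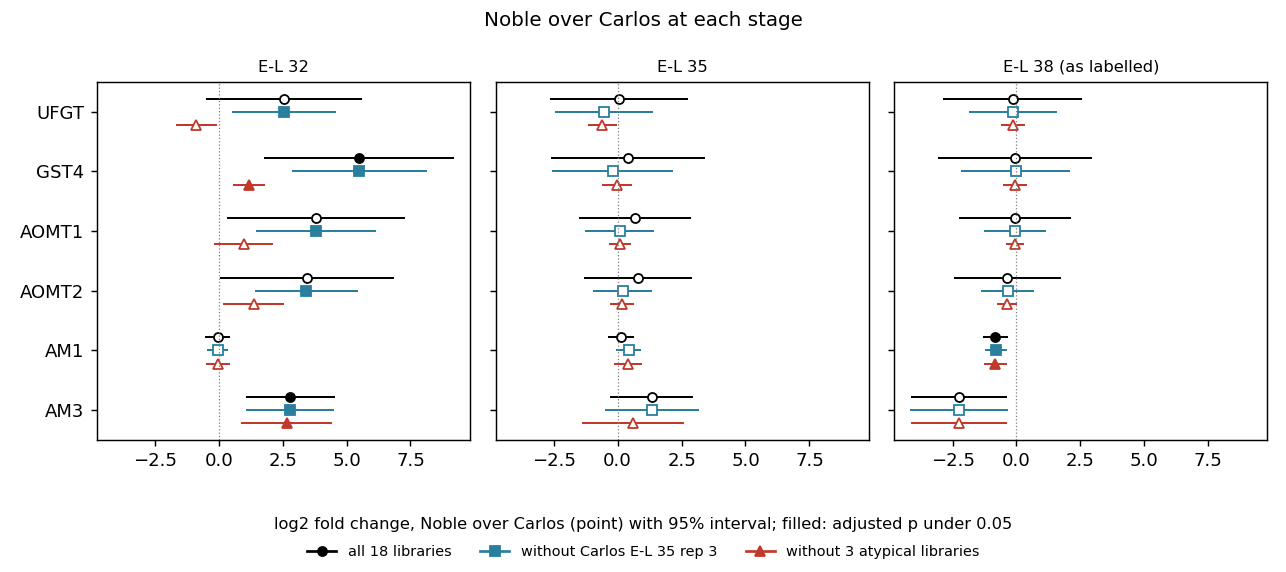
Log2 fold change of Noble over Carlos for 6 genes (points, horizontal axis) with 95% intervals at each stage, from 3 sets of libraries; filled points had an adjusted p under 0.05. At E-L 35 no point is filled, and without the 3 libraries called apart GST4 lies at -0.03 and UFGT at -0.60.

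At veraison none of these genes differed between the dark and the bronze cultivar past the threshold. None of the 6 passed in edgeR, where 19% of all genes tested did, and none had an unadjusted p under 0.05. None passed in limma-voom or any other alternative that gave an adjusted p, which DESeq2 did for 4 of the 6, leaving out UFGT and AOMT2. With all libraries, Carlos E-L 35 replicate 3 at its E-L 32 level among them, the intervals were wide: UFGT differed by 0.06 (log2; 95% interval -2.62 to 2.73) and GST4 by 0.40 (-2.58 to 3.38). Without the 3 libraries called apart, UFGT in Noble relative to Carlos was -0.60 (-1.13 to -0.07), with an edgeR adjusted p of 0.075 in a range of 0.075 to 1.0. In the same set GST4 differed by -0.03 (-0.58 to 0.51), which leaves room for a Noble level between 0.67 and 1.42 times that of Carlos. AOMT1 differed by 0.10 (-0.29 to 0.48) and AOMT2 by 0.17 (-0.26 to 0.60). AM1 differed by 0.39 (-0.12 to 0.90) and AM3 by 0.61 (-1.35 to 2.57).

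At maturity the 4 genes that had risen did not separate the labels past the threshold either. The labels Noble and Carlos at E-L 38 differed by -0.15 (log2; 95% interval -0.58 to 0.28) for UFGT, -0.05 (-0.50 to 0.39) for GST4, -0.06 (-0.37 to 0.26) for AOMT1 and -0.36 (-0.71 to -0.01) for AOMT2, without the 3 libraries called apart. With all libraries 1 of 6 genes was lower under the Noble label, AM1, where 12% of all genes tested were lower. AM1 was lower by 0.82 ± 0.22 on the log2 scale (-0.82, edgeR adjusted p = 0.014). It was no longer called without Noble E-L 38 replicate 1 (-0.78, edgeR adjusted p = 0.051) or Carlos E-L 38 replicate 3 (-0.46, adjusted p = 0.086), in a range of 0.0028 to 0.086. AM3 differed by -2.25 ± 0.86, edgeR adjusted p = 0.073, and passed in DESeq2 with an adjusted p of 0.04, in a range of 0.04 to 0.21.

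Do the E-L 38 labels fit the skin colours? UFGT, GST4, AOMT1 and AOMT2 give no order to read it from, since none of them differed past the threshold between the cultivars at E-L 35 or between the labels at E-L 38. The labels were then also set crosswise against E-L 35, which joins the step in stage with a change of cultivar name. Called in either direction were 21.8% of all genes for the Carlos label against Noble, and 21.4% for the Noble label against Carlos. Under the same name the step called 32.5% for Noble and 40.5% for Carlos. What these shares mean for the labels was not tested. The libraries labelled Carlos at E-L 38 against Noble at E-L 35 gave 1 of 6 genes higher, AM1 by 1.09 ± 0.22 (edgeR adjusted p = 0.0036), where 9.79% of all genes were higher. UFGT differed by 1.04 there, edgeR adjusted p = 0.59. Without the 3 libraries called apart 2 of 6 were higher, where 14% of all genes were. UFGT was then higher by 1.11, edgeR adjusted p = 0.0032 in a range of 0.0032 to 0.75. With only the groups compared it was higher by 1.01, edgeR adjusted p = 0.013. Since UFGT was higher in every E-L 38 library than in any E-L 35 library, these calls give no order of the labels. The libraries labelled Noble at E-L 38 against Carlos at E-L 35 gave none of 6 in edgeR, where 21.4% of all genes were called, and none with an unadjusted p under 0.05. There AM1 differed by 0.41 ± 0.22, and without Carlos E-L 35 replicate 3 it was higher by 0.70 ± 0.20 with an edgeR adjusted p of 0.027, in a range of 0.027 to 0.44. Skin colour itself was not recorded in these tables.

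Other identifiers of the pathway did change their label order. In the list of 24 identifiers for the steps upstream of UFGT, 19 were tested. The lists hold 13 identifiers for 1 step, the flavonoid 3',5'-hydroxylase, so the counts below can hold 1 gene family many times. The summed TPM of the 13 was higher in Noble at E-L 32, 252 to 284 against 110 to 111 in Carlos. At E-L 35 it was 42.85 to 79.25 in Noble and 637, 595 and 4.65 in Carlos. At E-L 38 it was 764 to 862 under the Noble label and 70.4 to 118 under the Carlos label. The order of this sum at E-L 38 was thus that of E-L 32. Outside Carlos E-L 35 replicate 3, E-L 35 had the opposite order. At E-L 35, 10 were lower and 0 higher in Noble, where 9.25% of all genes were lower and 9.75% higher. At E-L 38, 9 were higher and 0 lower under the Noble label, where 11.4% of all genes were higher. The median of the list was -1.06 at E-L 35 and 0.53 at E-L 38, and over all genes tested it was -0.02 and 0.00. At E-L 32, 8 were lower and 1 higher in Noble, where 13.6% of all genes were lower. Single libraries moved these counts, and also the number of all genes called in either direction. With 1 library left out that number ranged from 1869 to 4944 at E-L 35, in place of 3356. At E-L 38 it ranged from 2992 to 5836, in place of 4130. At E-L 35, 2 and 3 of the upstream identifiers were lower without Noble E-L 35 replicate 1 or 3, where 1869 and 2166 of all genes were called. Without Carlos E-L 35 replicate 1 or 2, 3 and 4 were lower, where 8.15% and 8.08% of all genes were lower. Without Carlos E-L 35 replicate 3, 13 of 20 tested were lower, where 13.1% of all genes were lower. At E-L 38, 6 were higher without Carlos E-L 38 replicate 1, 4 without its replicate 2, and 1 was lower in either case. Whether these E-L 38 counts fell more than those of all genes was not tested. Of the 8 identifiers listed for regulators of the pathway, 7 were tested, 1 was lower at E-L 35 and 2 were higher at E-L 38. Without Carlos E-L 35 replicate 3, 4 of the 7 were lower at E-L 35, where 13.1% of all genes were lower, and 2 were higher at E-L 38. Leaving out the 3 libraries called apart, 6 were lower at E-L 35, where 15.6% of all genes were lower, and 4 were higher at E-L 38, where 18.8% were higher. Without Noble E-L 35 replicate 2, 2 of the 7 were lower at E-L 35, where 11.3% of all genes were lower. Without Carlos E-L 38 replicate 2, 1 of the 7 was higher at E-L 38. In the list of 24, VIT_06s0009g02920 was lower in Noble at E-L 35 (-3.28 ± 0.79, edgeR adjusted p = 0.0097) and higher under the Noble label at E-L 38 (3.42 ± 0.78, adjusted p = 0.0054). In the regulator list VIT_15s0046g02560 did likewise (-0.92 ± 0.15, edgeR adjusted p = 0.00081, and 0.55 ± 0.15, adjusted p = 0.016). The lists were written from general knowledge of grapevine identifiers, which the tables do not annotate. Earlier results of these data were known when they were written, so their counts are not independent of these data.

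The clearest reversal, chosen after its values were seen, was VIT_14s0068g00920 of the upstream list. Its level was 169, 153 and 139 TPM in Noble and 576, 581 and 578 TPM in Carlos at E-L 32. At E-L 35 it was 152, 184 and 141 TPM in Noble and 576, 531 and 362 TPM in Carlos. At E-L 38 it was 660, 700 and 704 TPM under the Noble label and 249, 223 and 307 TPM under the Carlos label. Noble was thus the lower at both earlier stages and the label Noble the higher at maturity, without overlap at any stage. The difference of the label contrast between E-L 38 and E-L 35 was 3.17 ± 0.24 (log2, edgeR adjusted p = 2.8e-07). Because the identifier was chosen for this reversal, that p is no test of it. Over the same contrast, in which 33.4% of all genes were called, AM1 (-0.96 ± 0.31, edgeR adjusted p = 0.027) and AM3 (-3.59, adjusted p = 0.025) were called, both lower. Without Carlos E-L 38 replicate 3 the AM1 value was -0.59 with an edgeR adjusted p of 0.073, in a range of 0.0021 to 0.073. The AM3 value was -2.86 in the set without the 3 libraries called apart, with an edgeR adjusted p of 0.08, in a range of 0.0084 to 0.08. The AM1 call was also lost without replicate 1 or 2 of Carlos E-L 35 or of Noble E-L 38. That of AM3 was lost without Noble E-L 35 replicate 2 or without replicate 1 of Carlos E-L 35, Noble E-L 38 or Carlos E-L 38. UFGT moved by -0.20 ± 1.77 there and GST4 by -0.46 ± 1.97, neither called, and without the 3 libraries called apart by 0.45 (95% interval -0.22 to 1.13) and -0.02 (-0.72 to 0.68).

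**Figure D4:**
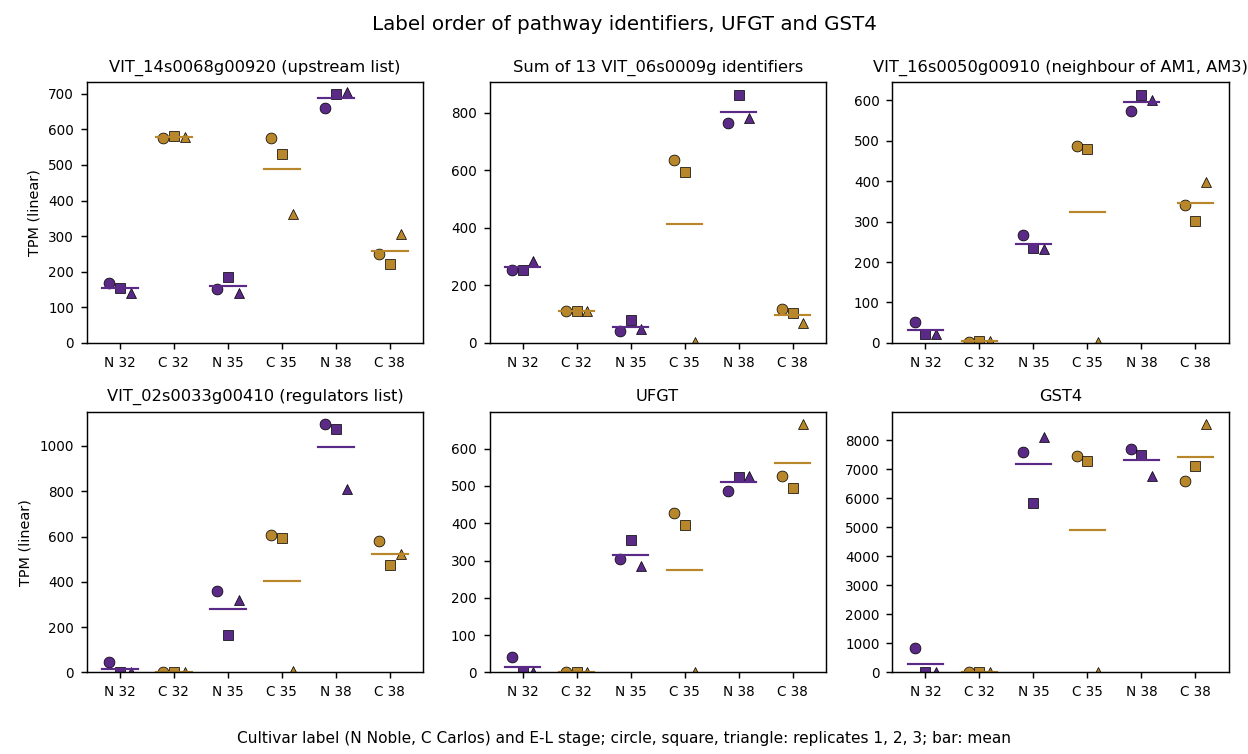
TPM (linear axis from 0) of 3 single identifiers, the summed TPM of 13 identifiers, UFGT and GST4 in 18 libraries by cultivar label and stage, with 1 marker per library and a bar at each mean. VIT_14s0068g00920 is lower in Noble at E-L 32 and E-L 35 and higher under that label at E-L 38, while UFGT and GST4 overlap between the labels at E-L 38.

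A neighbour of the transporter genes behaved unlike them. VIT_16s0050g00910, numbered between AM3 and AM1, held 52.3, 22.8 and 22.3 TPM in Noble at E-L 32 and 3 to 4.2 TPM in Carlos. At E-L 35 it held 266, 234 and 232 TPM in Noble and 488, 481 and 2.11 TPM in Carlos, and at E-L 38 574, 614 and 601 TPM under the Noble label and 340, 302 and 398 TPM under the Carlos label. It thus rose at veraison with UFGT and GST4, unlike AM1 and AM3 beside it. Its contrast with AM1 depends on how the reads that the 2 share were divided. Without Carlos E-L 35 replicate 3 VIT_16s0050g00910 was lower in Noble at E-L 35 (-1.14 ± 0.29, edgeR adjusted p = 0.0093). It was then higher under the Noble label at E-L 38 (0.79 ± 0.26, edgeR adjusted p = 0.032). Neither was called with all libraries. Of the 44 identifiers numbered within 50 of the 7 genes, 26 were tested. In Noble at E-L 35, 3 were higher and 1 lower, where 9.75% of all genes were higher and 9.25% lower, and under the Noble label at E-L 38, 3 were higher and 2 lower, where 11.4% were higher and 12% lower. Without Carlos E-L 35 replicate 3, 27 were tested. Then 3 were higher and 4 lower at E-L 35, beside 14.5% and 13.1% of all genes, and 7 higher and 3 lower at E-L 38, beside 17.2% and 15.4%.

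A pair of the libraries called apart differed from their replicates in UFGT, GST4, AOMT1 and AOMT2. Noble E-L 32 replicate 1 held 12.8% of the mean Noble E-L 35 level of UFGT, 11.7% of that of GST4, 11.6% of AOMT1 and 11.8% of AOMT2. Carlos E-L 35 replicate 3 held 0.144% of the mean of its 2 replicates for UFGT, 0.135% for GST4, 0.481% for AOMT1 and 0.113% for AOMT2, and 163% for AM1. Other genes moved in these libraries too: VIT_18s0122g00850, listed as a berry sugar transporter, stood at 21.3% and 13.4% in the 2 libraries, and 3 identifiers of the MYBA regulator locus at 12.8% to 18.1% and 0.76% to 1.61%. The sugar transporter is 1 of 3 identifiers listed for fruit, and the rest did not move that way. VIT_02s0154g00090 held 164 TPM in the Noble library, against a mean of 167 in its replicates. In the Carlos library it held 21.9 TPM, against 19.8 in its replicates and 177 in Carlos at E-L 32. VIT_16s0022g00670 held 12 against 15.1 TPM and 1.31 against 5.77 TPM, with 48.4 TPM in Carlos at E-L 32. The summed tannin and seed list held 1622 TPM in Carlos E-L 35 replicate 3, against 754 and 737 TPM in its replicates and 2212 to 2279 TPM in Carlos at E-L 32. Noble E-L 35 replicate 2 held the highest UFGT and the lowest GST4 level of its group, 356 and 5837 TPM. The part of these markers in the results was not tested.

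**Figure D5:**
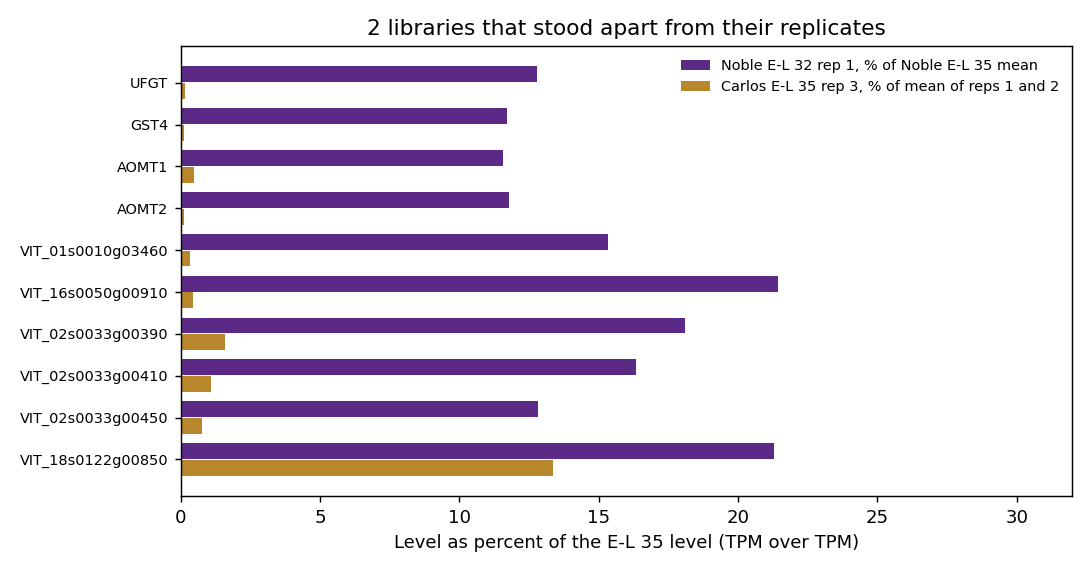
Level of 10 identifiers in Noble E-L 32 replicate 1 as a percent of the Noble E-L 35 mean, and in Carlos E-L 35 replicate 3 as a percent of the mean of its 2 replicates (bars, from 0). UFGT, GST4, AOMT1 and AOMT2 lie between 11.6% and 12.8% in the first library and under 0.5% in the second.

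Once high, the genes kept their order of level. Over the 11 libraries of E-L 35 and E-L 38 without Carlos E-L 35 replicate 3, UFGT ranged from 286 to 665 TPM, a 2.33-fold range, and GST4 from 5837 to 8558 TPM, a 1.47-fold range. AOMT1 ranged from 94.9 to 156 TPM and AOMT2 from 67 to 111 TPM, both 1.65-fold. The TPM of GST4 was 12.5 to 28.3 times that of UFGT, and that of AOMT1 was 1.15 to 1.88 times that of AOMT2. Ordered by level in these libraries, GST4 stood above UFGT in all 11, UFGT above AOMT1 in all 11 and AOMT1 above AOMT2 in all 11, while AM1 reached 20.2 TPM at most. The order of AOMT1 and AOMT2 depends on how their shared reads were divided.

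Among 11898 identifiers that reached 10 CPM as the mean of some group, those most like UFGT in log2 CPM over the 18 libraries were GST4 (Pearson r = 0.98), AOMT1 (0.98) and VIT_12s0028g02440 (0.98). Those most like GST4 were AOMT1 (0.997), VIT_01s0010g03460 (0.99), which is numbered next to the AOMT genes, and VIT_08s0007g08330 (0.99). The libraries fall into 2 clusters, low and high, and share their library totals, so these values are a description and carry no test.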

How the data were processed

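Berry RNA of 2 muscadine cultivars at 3 stages was sequenced in 18 libraries, 3 per group, grouped by the labels. The labels name no separate vines or harvests behind the replicates, so the tests weigh the spread among these samples alone, and that spread may be technical. The tools named in the submitters' processing notes are RSEM 1.3.3 and STAR 2.7.6a. Build, annotation and strand setting: not given in the sources used. The authors deposited, per the file headers, an expected count, a TPM and an FPKM value for each of 27228 identifiers per library. The expected counts of the authors share reads among similar genes. The TPM values of the authors are scaled by length and library, and so are the deposited FPKM values, which were not tested.

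Expected counts were rounded to whole numbers. The filterByExpr function of edgeR 4.0.16 (R 4.3.3) left 17657 genes. The quasi-likelihood F test was fitted to all 18 libraries with TMM scaling and 1 coefficient per group, with Benjamini-Hochberg adjustment across every gene tested. The standard error is the log2 fold change divided by the square root of F. The script was tested on simulated data. CPM for likeness used a prior count of 2. Library totals of 18919160 to 30843026 counts set the precision, and floors cover counting error only. The lowest chi-square per degree of freedom between replicates was 2.95, so none was counted as a duplicate. Alternatives were TMM against other scalings (RLE, upper quartile), no filter, unrounded counts, DESeq2 1.42.0, limma-voom and limma 3.58.1 on log2(TPM + 1), only the groups compared, no E-L 38 libraries, a replicate block, no libraries called apart, and each library left out.

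The 7 genes and the lists were chosen with earlier results of these data known. The text names all 7; of each other list, at most the 2 called identifiers with the largest change and 10 CPM or more as the mean of a group; neighbours numbered within 50; and the 3 identifiers most like UFGT and GST4. Fewer are printed than this rule allows. A reference table of 27334 genes of the assembly VITMroCarlos_v1.3 matched 0 identifiers, so no coordinates or sequences are given.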

Additional observations from a re-analysis of the deposited data

Results flagged for a closer look

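AM3 differed between the cultivar labels in its step from E-L 35 to E-L 38: the step of the Noble label minus that of the Carlos label was -3.59 (log2, edgeR adjusted p = 0.025). AM1 did so as well, at -0.96 (edgeR adjusted p = 0.027). The test was of the difference between the 2 steps itself, and 33.4% of all genes were called in it. The AM3 call was lost without Noble E-L 35 replicate 2 (-2.85, edgeR adjusted p = 0.07), Carlos E-L 35 replicate 1 (-3.31), Noble E-L 38 replicate 1 (-3.08) or Carlos E-L 38 replicate 1 (-3.19), and its adjusted p ranged from 0.0084 to 0.08 over the alternatives. The AM1 call was lost without Carlos E-L 35 replicate 1 (-0.79) or replicate 2 (-0.86), Noble E-L 38 replicate 1 (-0.92) or replicate 2 (-0.96), or Carlos E-L 38 replicate 3 (-0.59, edgeR adjusted p = 0.073), and its adjusted p ranged from 0.0021 to 0.073. AM3 lay at 0 to 1.24 TPM in every library, and AM1 rests on counts that were divided with its neighbour VIT_16s0050g00910.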

How the results depend on the processing

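The 6 genes tested were refitted under 29 alternatives, 18 of which leave out 1 library. Of 2015 single-gene values, 1912 kept their direction and their side of the threshold, 42 lost their call, 19 gained one and 42 changed sign, the last all uncalled on both sides. Depth limits AM3 and 3AT. A gene with no adjusted p under an alternative is counted as not called: DESeq2 gave one to 4 of the 6 in every comparison, and with only the groups compared 1 to 3 genes missed the filter in some comparisons. The causes of the changes below were not tested.

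The number of the 6 genes called, 2 at E-L 32, was 1 under limma-voom, without the 6 libraries of E-L 38, under the replicate block and with limma on log2(TPM + 1). At E-L 38 it was 2 under DESeq2 in place of 1. For the step to veraison, 5 in each cultivar, it was 3 in Noble under limma-voom (of 6) and DESeq2 (of 4), and in Carlos 1 under limma-voom (of 6), 3 under DESeq2 (of 4) and 3 with only the groups compared (of 3). With only the groups compared it was 0 for the Carlos label from E-L 35 to E-L 38 in place of 1, 0 for the label difference in place of 2 and 2 for the Carlos label at E-L 38 against Noble at E-L 35 in place of 1. Without the 3 libraries called apart it was 2 for the average of E-L 38 over E-L 35, 1 for the cultivar difference of the step to veraison (1 also under DESeq2, in place of 0), 1 for the label difference, 2 for Carlos-labelled E-L 38 against Noble E-L 35 and 1 for Noble-labelled E-L 38 against Carlos E-L 35.

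With each library left out in turn the number called ranged from 0 to 5 between cultivars at E-L 32, stayed at 0 at E-L 35, ranged from 0 to 2 between labels at E-L 38, 3 to 5 for Noble and 5 to 5 for Carlos at veraison, 0 to 1 for the Noble label and 1 to 1 for the Carlos label from E-L 35 to E-L 38, 1 to 1 for their average, 0 to 3 for the cultivar difference, 0 to 2 for the label difference, and 1 to 1 and 0 to 1 for the 2 crosswise comparisons.

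Log2 values that changed sign were these. At E-L 32 AM1 was 0.032 with upper-quartile scaling and 0.091 with limma on log2(TPM + 1). Without the 3 libraries called apart UFGT was -0.88 at E-L 32 and -0.60 at E-L 35, and GST4 -0.034 at E-L 35; AOMT1 was -0.037 for the Carlos label from E-L 35 to E-L 38 and -0.11 in the average; UFGT was 0.28 in the cultivar difference and 0.45 in the label difference; AM3 was 0.24 for Carlos-labelled E-L 38 against Noble E-L 35; and AOMT1 and AOMT2 were -0.095 and -0.056 for Noble-labelled E-L 38 against Carlos E-L 35. In the cultivar difference limma-voom gave 2.15, 0.028, 0.15 and 0.45 for UFGT, GST4, AOMT1 and AOMT2, and limma on log2(TPM + 1) gave 1.42, 0.055, 0.82 and 0.91. That test gave -0.11 for AOMT2 in Carlos-labelled E-L 38 against Noble E-L 35.

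Leaving out 1 library gave UFGT at E-L 32 values of -0.85 to 3.13. At E-L 35 the ranges were -0.53 to 0.52 for UFGT, -0.19 to 0.83 for GST4 and -0.013 to 0.43 for AM1. At E-L 38 they were -0.22 to 0.045 for UFGT, -0.18 to 0.12 for GST4 and -0.17 to 0.048 for AOMT1. AM3 in the Noble step to veraison ranged from -1.09 to 0.12. AOMT1 ranged from -0.052 to 1.03 for the Carlos label from E-L 35 to E-L 38 and from -0.11 to 0.43 in the average. UFGT ranged from -3.08 to 0.90 in the cultivar difference and from -0.65 to 0.40 in the label difference, where GST4 ranged from -0.86 to 0.15. For Carlos-labelled E-L 38 against Noble E-L 35 the ranges were -0.22 to 0.0014 for AOMT1, -0.053 to 0.16 for AOMT2 and -0.97 to 0.24 for AM3. For Noble-labelled E-L 38 against Carlos E-L 35 they were -0.093 to 0.99 for AOMT1 and -0.054 to 1.01 for AOMT2.

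Counts over all genes moved by over 1.5 times as follows. With only the groups compared they were 9298 in place of 4852 at E-L 32, 449 in place of 3356 at E-L 35, 2746 in place of 7149 for the Carlos label from E-L 35 to E-L 38, 2317 in place of 3858 for Carlos-labelled E-L 38 against Noble E-L 35 and 1015 in place of 3787 for the other crosswise comparison. Without the 3 libraries they were 5841 at E-L 35, 6671 in place of 4130 at E-L 38 and 5252 in place of 3108 for the cultivar difference. With 1 library left out they ranged from 1869 to 4944 at E-L 35, 2105 to 4770 for the cultivar difference, 1993 to 5800 and 2145 to 4196 for the crosswise comparisons.

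Replicate numbers did not pair the samples: deviations of same-numbered libraries correlated by -0.23 to 0.31 over 45 pairs, different numbers by -0.34 to 0.30 over 90, and 5 of 18 libraries correlated best with their own number. With the replicate block GST4 at E-L 32 was 4.71 with an edgeR adjusted p of 0.082, and no other call among the 6 genes was lost.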

Other observations

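The 4 identifiers listed for the MYBA regulator locus together held 253.7 to 631 TPM in Noble at E-L 35, and 983.5, 996 and 10.4 TPM in replicates 1, 2 and 3 of Carlos at that stage. They held 893 to 925 TPM under the Carlos label at E-L 38 and 1272 to 1712 TPM under the Noble label. At E-L 32 they held 3.07 to 74.2 TPM in Noble and 0.95 to 1.49 TPM in Carlos. Noble was thus the higher at E-L 32 and, outside Carlos E-L 35 replicate 3, the lower at E-L 35. The label Noble was the higher at E-L 38, the same order as at E-L 32. In the step to veraison 3 of the 7 regulators tested rose and 1 fell in each cultivar, where 23.7% of all genes rose and 26.4% fell in Noble, and 26.1% rose and 27.4% fell in Carlos. Of the 5 tannin and seed identifiers tested, 4 fell in Noble, and in Carlos 3 fell and 1 rose, beside the same shares of all genes. Without Noble E-L 35 replicate 1 or replicate 3 the tannin and seed count that fell in Noble was 2. Without Carlos E-L 35 replicate 3 the regulators that fell in Noble were 2, where 29.8% of all genes fell. With 1 library left out, all genes called in the Noble step, in either direction, ranged from 7357 to 10225, in place of 8850. The summed tannin and seed list held 1298 to 1380 TPM in Noble and 2212 to 2279 TPM in Carlos at E-L 32. At E-L 35 it held 451, 768 and 462 TPM in Noble and 754, 737 and 1622 TPM in Carlos. It held 347 to 494 TPM under the Noble label and 38.1 to 89.9 TPM under the Carlos label at E-L 38. Carlos was thus the higher at E-L 32, the groups overlapped at E-L 35, and the label Noble was the higher at E-L 38.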
